A study of Mus musculus with 3 samples.

Results

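The retinoblastoma family, the inhibitors of cyclin-dependent kinases (CDKs) and the G1 kinases were followed through 10 genes: Rb1, Rbl1, Rbl2, Cdkn1a, Cdkn1b, Cdkn1c, Cdkn2c, Cdk4, Cdk6 and Ccnd2. They were picked by symbol from the 24982 gene symbols of the tables, for their roles in stem cell quiescence and entry into G1. All 10 were found. RNA was sequenced from mouse LKS cells (Lin-Kit+Sca1+), a bone marrow fraction enriched for haematopoietic stem cells and early progenitors. Wild-type (WT) recipient mice gave 2 libraries and CD73-/- recipients gave 1 library (KO). CD73, encoded by Nt5e, is the surface enzyme that makes adenosine from AMP. The labels do not say what the recipients received, which mice the sorted cells derive from, or the strain, age and number of animals. The members were chosen with the values of these libraries in view, so their levels are described without tests.

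Progression through G1 turns on the pocket proteins. RB1, p107 (Rbl1) and p130 (Rbl2) bind E2F transcription factors and hold back genes needed for DNA replication, and p130 is the pocket protein classically found on E2F4 in resting cells. D-type cyclins with CDK4 or CDK6 phosphorylate the pocket proteins and release E2F, while the CIP/KIP proteins p21, p27 and p57 and the INK4 proteins, among them p18, restrain the kinases. In haematopoietic stem cells p57, p27 and p18 are known brakes on cycling, and CDK6 is known for its part in the exit from quiescence.

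The libraries were shallow, with 264704 to 361638 gene-level counts and 8474 to 9519 genes detected. A count of 0 allows up to 3 counts, which is 8.30, 9.23 and 11.3 CPM (counts scaled to library size) in WT replicate 1, WT replicate 2 and KO. Nt5e had 0 counts in every library, so the targeted gene could not check the labels. The 7 gate and progenitor genes summed to 2082, 2342 and 1481 CPM. Of these, Kit had 187, 207 and 147 counts, in the same order, while Ly6a (Sca1) had 60, 19 and 36. The other 5 were lowest in KO by CPM: Cd34 had 230, 194 and 110 counts, Flt3 104, 151 and 56, Ptprc 145, 135 and 42, Cd48 24, 46 and 1, and Slamf1 3, 9 and 0. Of markers of other cells, 8 mature neutrophil genes summed to 824, 1114 and 378 CPM. The 6 monocyte and macrophage genes summed to 191, 603 and 457 CPM, and 9 erythroid genes to 429, 129 and 612 CPM. The erythroid sums came mostly from Hbb-bt (151, 42 and 114 counts), and in KO also from Epor (25) and Car1 (20). The 7 T and NK genes summed to 194, 105 and 155 CPM, nearly all from Nkg7 (68, 32 and 41 counts) and with Cd3e at 0 throughout, the 4 B lineage genes to 13.8, 55.4 and 0, and the 5 stromal genes to 0, 0 and 30.2. Dendritic markers (6 genes) summed to 11.1, 0 and 102 CPM, and in KO Clec9a was the source. The 4 megakaryocyte genes summed to 437, 391 and 835 CPM. The part of these markers in the results below was not tested. The WT libraries differed from each other far beyond independent counting, with a chi-square of 12.5 per gene over genes with at least 10 counts in the pair. Counting intervals given below, all at 95%, therefore understate the spread between libraries.

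Among the pocket proteins, Rbl2 was nearly missing from the KO library while Rbl1 was at its highest there. Rbl2, which encodes p130, had 98 and 34 counts in WT replicates 1 and 2 and 1 count in KO, or 271, 105 and 3.78 CPM. Both WT libraries were far above KO, but they were also apart from each other by 2.59-fold (counting interval 1.74 to 3.95). Against the pooled WT counts, KO was 50.9-fold lower (counting interval 8.98 to 2025). By counting error alone, the upper bound of the single KO count, 21.1 CPM, lay below the lower bound of WT replicate 2, 72.5 CPM. Rbl2 was chosen with these values in view, so the gap between the bounds is no test. In bulk RNA, fewer cells that express a gene and less RNA per cell cannot be told apart. The 3 Rbl2 transcript rows carried equal counts within each library, the low KO value among them. Transcript rows repeat shared reads, so the agreement of the rows is no separate support. Each WT library held at least 30 counts of 2052 genes, of which 65 (3.17%) had 0 or 1 count in KO, a limit set after the values were seen. Of the 4 members in that set, Rbl2 was the one that did. No such share was counted for a WT library, so 3.17% cannot be called particular to KO.

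Rbl1, which encodes p107, had 63, 27 and 64 counts, or 174, 83.1 and 242 CPM. KO lay above both WT libraries, by 1.39-fold (counting interval 0.965 to 2.0) over WT replicate 1 and 2.91-fold (1.83 to 4.75) over WT replicate 2. The WT pair themselves differed by 2.10-fold (1.32 to 3.42), so the gap between KO and WT replicate 1 was smaller than the gap within WT. Rb1, the founding member, had 3, 6 and 1 counts. Its deposited FPKM (reads scaled to transcript length and library size) was 1.79, 4.0 and 0.822, and the KO to pooled WT ratio of 0.288 had a counting interval of 0.00658 to 2.08. Depth did not allow a difference in Rb1 to be seen.

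The balance within the family does not depend on library size. Rbl2 made up 59.8% of the counts of the 3 pocket genes in WT replicate 1 (exact binomial interval 51.8% to 67.3%), 50.7% in WT replicate 2 (38.2% to 63.2%) and 1.52% in KO (0.0384% to 8.16%). The WT intervals overlapped on this share although the Rbl2 levels of the WT libraries did not. Rbl1 made up 38.4%, 40.3% and 97.0%. The summed FPKM of the 3 genes was 100.3, 45.4 and 51.9, so the KO total fell between the WT libraries and its composition did not.

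**Figure D1:**
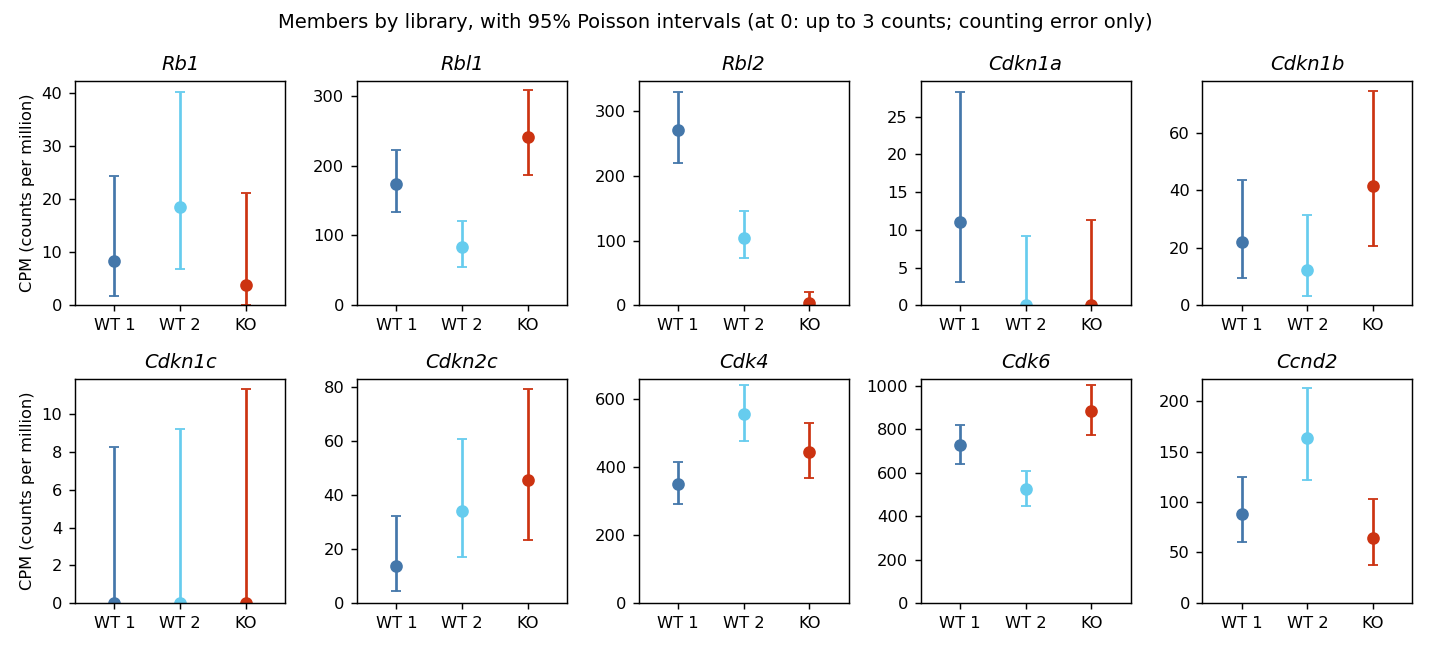
CPM of each of the 10 genes (vertical axis, from 0, a separate scale per gene) in WT replicate 1, WT replicate 2 and KO; bars are 95% Poisson intervals of the count, or reach 3 counts where the count is 0. Rbl2 goes from 271 and 105 CPM in WT to 3.78 in KO, Rbl1 and Cdk6 are highest in KO, Cdk4 in KO lies between the WT libraries, and Cdkn1c is at 0 in all 3.

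Because Rbl1 and Rbl2 stood at opposite ends in KO, the 250 bases before their RefSeq start sites (GRCm38.p6, 5′ to 3′ on the gene's strand) are shown, with matches to an E2F word (TTTCCCGC, TTTCGCGC, TTTGCCGC or TTTGGCGC) or to the cell cycle homology region TTTGAA, on either strand, in capitals. Rbl1 lies at chr2:157204535-157204784 on the minus strand and Rbl2 at chr8:91069807-91070056 on the plus strand.
Rbl1: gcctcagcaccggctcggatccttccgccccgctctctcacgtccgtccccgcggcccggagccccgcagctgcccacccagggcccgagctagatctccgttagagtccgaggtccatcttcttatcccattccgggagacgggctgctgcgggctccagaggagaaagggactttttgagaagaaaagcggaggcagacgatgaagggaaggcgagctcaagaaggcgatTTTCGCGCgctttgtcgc
Rbl2: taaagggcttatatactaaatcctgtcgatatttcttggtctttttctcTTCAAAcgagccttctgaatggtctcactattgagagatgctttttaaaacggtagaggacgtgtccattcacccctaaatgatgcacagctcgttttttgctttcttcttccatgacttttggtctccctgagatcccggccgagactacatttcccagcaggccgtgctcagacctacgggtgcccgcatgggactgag
The Rbl1 window held 1 E2F word, starting 18 bases before the start site, and no TTTGAA. The Rbl2 window held no E2F word and 1 TTTGAA, on the opposite strand, starting 201 bases before the start site. Over the 32817 windows of this kind in the table, 1.86% held an E2F word and 16.0% held TTTGAA. The windows thus differ in these letters. A match is a string of letters and not a measured binding site. The genes span 157145893 to 157204534 on chromosome 2 (Rbl1), 91070057 to 91123844 on chromosome 8 (Rbl2) and 73183673 to 73325822 on chromosome 14 (Rb1), and all are protein-coding. Exons of Rb1 overlap Lpar6 (18, 29 and 2 counts) and Rcbtb2 (18, 58 and 0), and exons of Rbl2 overlap Aktip (2, 0 and 0), all on the opposite strand. The use of strand is not given in the sources used here, and reads from either partner may be counted for both.

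The CDK inhibitors were rare in every library. Together Cdkn1a, Cdkn1b, Cdkn1c and Cdkn2c had 17, 15 and 23 counts, or 47.0, 46.2 and 86.9 CPM. Cdkn1c, which encodes p57, had 0 counts in all 3 libraries over its 3 transcript rows, which allows up to 11.3 CPM in KO, and nothing can be said of a difference. Cdkn1a, which encodes p21, the p53-induced inhibitor, had 4 counts in WT replicate 1 and 0 in the other libraries. The 11.1 CPM of WT replicate 1 was within what a count of 0 allows in KO.

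Cdkn1b, which encodes p27, had 8, 4 and 11 counts, or 22.1, 12.3 and 41.6 CPM. KO was the highest library, 2.38-fold over the pooled WT counts, with a counting interval of 0.951 to 5.89 that includes no change. Cdkn2c, which encodes the INK4 protein p18, had 5, 11 and 12 counts, or 13.8, 33.8 and 45.3 CPM. Here KO and WT replicate 2 were close (ratio 1.34, counting interval 0.541 to 3.35), and WT replicate 1 was the low library. This reading depends on the transcript row, as given below.

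Cdkn2c has 2 transcript rows with separate first exons. The row NM_007671 is the annotated transcript that starts downstream, and NM_001301368 the one with a long upstream first exon. NM_007671 had 5, 4 and 12 counts and NM_001301368 had 4, 11 and 12. The gene count thus came from NM_007671 in WT replicate 1 and from NM_001301368 in WT replicate 2. On NM_007671 alone, WT replicate 2 was the lowest library and KO lay above both WT libraries. The closeness of KO and WT replicate 2 therefore holds for NM_001301368 and not for NM_007671. The deposited FPKM was placed on the long form in both WT libraries (5.45 and 16.7, with the short form listed at 0). In KO it was placed almost wholly on the short form (47.2 against 1.66). As a result the summed FPKM, 5.45, 16.7 and 48.8, spreads the libraries more than the counts do. With 12 reads in KO, the estimate of isoforms rests on little data.

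The G1 kinases were the most abundant members, and the KO library carried them at levels near or above WT. Cdk6 had 263, 170 and 234 counts, or 727, 523 and 884 CPM, and ranked 149th, 238th and 116th among all genes by CPM. KO was above both WT libraries, by 1.22-fold over WT replicate 1 (counting interval 1.02 to 1.46) and 1.69-fold over WT replicate 2 (1.38 to 2.07). The WT pair was apart by 1.39-fold (1.14 to 1.70), which is more than the KO library differed from the nearer of them. Cdk4 had 126, 180 and 117 counts, or 348, 554 and 442 CPM. KO lay between the WT libraries, with a ratio to the pooled WT counts of 0.992 (counting interval 0.795 to 1.23).

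Per length Cdk4 stood above Cdk6 in every library, while by counts it did so in WT replicate 2 alone. Cdk4 had 247, 393 and 358 FPKM against 63.4, 45.8 and 77.8 for Cdk6, a level 3.89, 8.59 and 4.61 times that of Cdk6. In counts, Cdk6 made up 67.6% of the pair in WT replicate 1 (exact binomial interval 62.7% to 72.2%), 48.6% in WT replicate 2 (43.2% to 53.9%) and 66.7% in KO (61.5% to 71.6%). On this share KO matched WT replicate 1 and WT replicate 2 stood apart. The summed CPM of both kinases was 1076, 1077 and 1326.

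Cdk4 has 2 transcript rows, whose counts repeat shared reads to an unknown extent. NM_009870 had 126, 180 and 117 counts and NM_001355005 had 90, 136 and 111. The ratio of the second row to the first was 0.714, 0.756 and 0.949, highest in KO, and it carries no interval since the overlap of the rows is not known. The deposited FPKM of NM_001355005 was listed at 0 in both WT libraries and was 260.2 in KO, where NM_009870 had 98.2. The exons of NM_001355005 were not analysed here. The long last exon of the annotated Cdk4 transcript overlaps Tspan31 on the opposite strand, which had 33, 11 and 21 counts. For Rbl1, the row NM_001139516 had 14, 5 and 4 counts beside 63, 27 and 64 on NM_011249, and its FPKM was listed at 0 in every library.

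**Figure D2:**
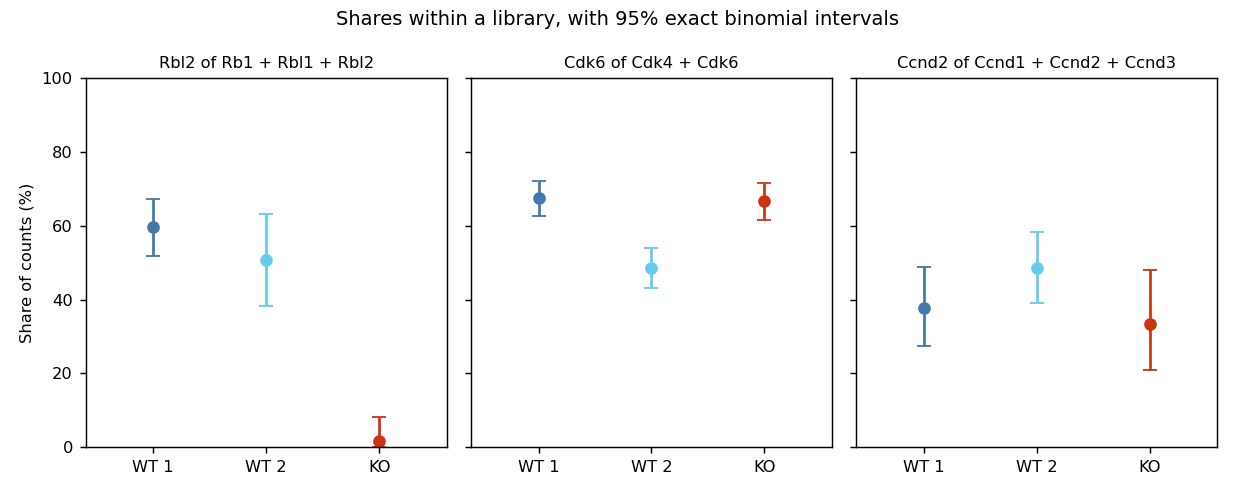
Shares of counts within each library (percent, 0 to 100) for Rbl2 among the pocket genes, Cdk6 among the kinases and Ccnd2 among the D cyclins; bars are 95% exact binomial intervals. The KO interval lies apart from both WT intervals for Rbl2 (1.52%), and it overlaps that of WT replicate 1 for Cdk6 and both for Ccnd2.

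The windows before the RefSeq starts of the kinase genes are shown, again 250 bases, since Cdk4 carries the largest per-length level of the members. Matches to the E-box CACGTG, the word bound by Myc and related factors, are in capitals, and no E2F word or TTTGAA was found. Cdk4 lies at chr10:127063285-127063534 and Cdk6 at chr5:3343643-3343892, both on the plus strand.
Cdk4: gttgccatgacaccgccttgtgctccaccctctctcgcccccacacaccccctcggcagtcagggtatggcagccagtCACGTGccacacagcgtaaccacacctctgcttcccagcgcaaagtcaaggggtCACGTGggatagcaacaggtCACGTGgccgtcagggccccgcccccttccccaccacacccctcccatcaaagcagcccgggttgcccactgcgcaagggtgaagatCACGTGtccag
Cdk6: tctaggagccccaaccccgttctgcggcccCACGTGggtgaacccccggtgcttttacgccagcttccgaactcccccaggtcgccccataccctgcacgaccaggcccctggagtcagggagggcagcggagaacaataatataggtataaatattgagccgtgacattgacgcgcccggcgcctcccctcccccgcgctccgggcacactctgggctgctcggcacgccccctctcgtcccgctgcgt
Cdk4 held 4 E-boxes and Cdk6 held 1. Of the 32817 windows, 6.02% held at least 1 and 7 windows (0.0213%) held 4 or more. Windows were found for 7 of the 10 members, 9 windows in all. Those of Cdkn1a, Cdkn1b and Cdkn2c held none of the searched words. Cdk4 spans 127063534 to 127067920 on chromosome 10 and Cdk6 spans 3341485 to 3531008 on chromosome 5. The Cdk6 window lies inside that GENCODE span, because the RefSeq start used lies downstream of the GENCODE start. Myc had 155, 227 and 85 counts, or 429, 699 and 321 CPM.

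Ccnd2, the D-type cyclin among the members, was lowest in KO. It had 32, 53 and 17 counts, or 88.5, 163 and 64.2 CPM. KO was 0.726 of WT replicate 1 (counting interval 0.378 to 1.35) and 0.394 of WT replicate 2 (0.214 to 0.691), and the WT libraries differed by a ratio of 0.542 (0.339 to 0.857). The difference to WT replicate 1 was thus within counting error. Ccnd3 had 39, 52 and 27 counts and Ccnd1 had 14, 4 and 7. Ccnd2 held 37.6% of D cyclin counts in WT replicate 1 (exact binomial interval 27.4% to 48.8%), 48.6% in WT replicate 2 (38.9% to 58.4%) and 33.3% in KO (20.8% to 47.9%), and these intervals overlap. The summed FPKM of the 3 D cyclins was 103, 144 and 91.5.

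Ordered by mean WT FPKM, the members ran from Cdk4 (320 ± 104, SD, n = 2) to Cdk6 (54.6 ± 12.5), Rbl2 (43.4 ± 27.1), Rbl1 (26.5 ± 13.2), Ccnd2 (21.9 ± 9.24), Cdkn2c (11.1 ± 7.98), Cdkn1b (7.20 ± 2.89), Cdkn1a (3.05 ± 4.31), Rb1 (2.89 ± 1.56) and Cdkn1c (listed at 0). Cdk4 was separated from Cdk6 in both WT libraries. From Cdk6 down to Rb1 the WT ranges of each neighbouring pair overlapped. In KO the order was Cdk4 (358), Cdk6 (77.8), Rbl1 (50.2), Cdkn2c (48.8), Cdkn1b (17.5), Ccnd2 (11.3), Rbl2 (0.881) and Rb1 (0.822), with Cdkn1a and Cdkn1c listed at 0. Rbl2, next after Cdk6 in WT, stood beside Rb1 in KO, where its value rests on 1 read. The KO place of Cdkn2c rests on 12 reads, with the FPKM placed almost wholly on its short form. By CPM, Cdkn2c (45.3) stood below Ccnd2 (64.2) in KO.

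**Figure D3:**
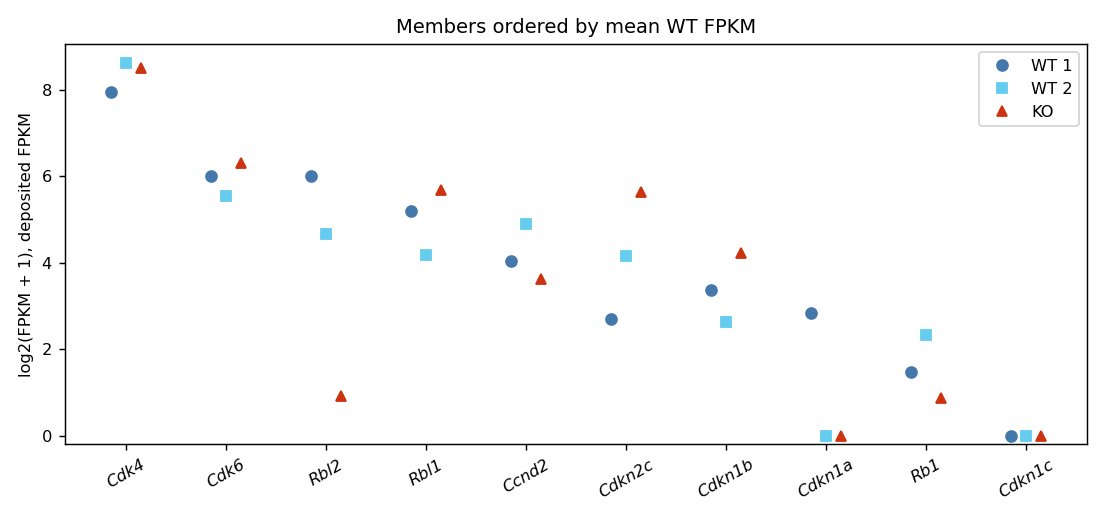
Deposited FPKM of the members, summed over transcript rows and shown as log2(FPKM + 1), in WT replicate 1 (circles), WT replicate 2 (squares) and KO (triangles), ordered by the WT mean. Cdk4 is highest in all 3 libraries, and the widest gap between KO and both WT libraries is that of Rbl2 (0.881 against 62.6 and 24.3 FPKM).

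The members were chosen on this contrast, so counts of members past a limit are set beside those of the whole table and nothing is read from them. The edgeR quasi-likelihood test of KO against WT took 7 of the 10 members, leaving out Rb1, Cdkn1a and Cdkn1c for low counts. At a Benjamini-Hochberg adjusted p of 0.05 it called 0 of the 7, beside 8 of 7984 genes higher (0.1%) and 0 lower (0%). At an unadjusted p under 0.05 it had 282 genes higher and 520 lower, while DESeq2 called 0 genes (165 higher and 456 lower unadjusted). Of the 5 members that reached 50 counts in any library, 2 (Rbl1 and Cdk6) were above both WT libraries in KO, where 29.1% of 2831 genes were, and 2 (Rbl2 and Ccnd2) were below both, where 39.5% of genes were. Rbl2 was at least 2-fold below each WT library, as were 17.9% of genes, and 0 members were at least 2-fold above each, as were 9.25%.

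**Figure D4:**
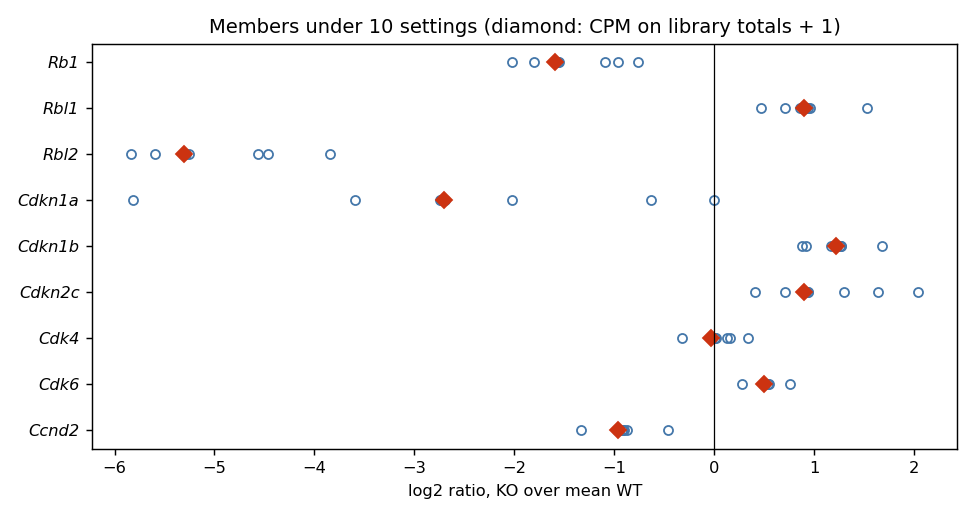
The log2 ratio of KO to the mean of the WT libraries for the 9 members with any count (horizontal axis) under 10 settings of scaling, pseudocount, gene count, unit and libraries used; the diamond is CPM on library totals plus 1. Rbl2 stays between -5.83 and -3.84, Cdk6 between 0.28 and 0.76, and Cdk4 lies on both sides of 0, from -0.33 to 0.34.

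Around the members, 90 other genes of the pathway were in the tables and 69 were tested. In edgeR's quasi-likelihood test 0 of 69 were higher and 0 lower at an adjusted p of 0.05, with 2 higher and 6 lower at an unadjusted p under 0.05. DESeq2 also called 0 of 82. Their median log2 fold change was -0.35, beside -0.31 over all 7984 genes, so these genes as a whole lay where the table did. Setting the tested genes at 0 in a group to a floor of 3 counts over that group left both medians unchanged.

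The kinase partners and E2F factors had mixed values. Cdk2, the kinase that works with cyclin E, had 43, 29 and 107 counts, or 119, 89.2 and 404 CPM, with a log2 fold change of 1.99 (edgeR adjusted p 0.42). Cdc37, the chaperone that loads CDK4 onto HSP90, was even at 304, 292 and 295 CPM. Ccnd3 had 108, 160 and 102 CPM. Over the 8 tested G1 cyclins and kinases, 4 fold changes were positive and 4 negative, with a median of -0.04. Tfdp1, the DP partner of E2F, had 346, 175 and 102 CPM. E2f1, an activator, had 229, 33.8 and 34.0 CPM, so that WT replicate 2 and KO were alike and WT replicate 1 was the high library. E2f8, a repressor of the same family, had 30.4, 163 and 68.0. Over 7 tested E2F and DP genes the median was -0.46, with 2 positive.

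Genes of the MuvB core, which joins p130 in the DREAM complex, and of B-Myb gave few testable values. Of the 6 genes of the MuvB core and B-Myb, 3 were tested, all with negative fold changes and a median of -0.87. Rbbp4, a histone-binding subunit, had 81, 46 and 32 counts, or 224, 142 and 121 CPM. Mybl2, which encodes B-Myb, the factor that replaces p130 on MuvB as cells cycle, had 91.3, 366 and 83.1 CPM, and Lin37 had 96.8, 30.8 and 34.0 CPM.

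Among the INK4 genes outside the members, Cdkn2a, which encodes p16 and p19ARF, had 0, 21 and 0 counts, or 64.6 CPM in WT replicate 2 alone. Cdkn2b had 0 counts in every library and Cdkn2d had 3, 4 and 0. Among ubiquitin ligase and related genes linked to p27 levels, Skp1a, a core subunit of the SCF ubiquitin ligase, had 72, 51 and 1 counts. In CPM this was 199, 157 and 3.78, with an edgeR log2 fold change of -5.38. Like Rbl2, Skp1a thus had a single KO read. Cul1, the scaffold of that ligase, had 105, 179 and 106 CPM. Fzr1, which encodes the CDH1 activator of the anaphase-promoting complex, had 102, 185 and 397 CPM. The median over the 7 tested genes was -0.38, with 3 positive. The list mixes genes with different roles toward p27, so its median has no single direction for p27 turnover.

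Upstream regulators had a median of -1.53 over 14 tested genes, 10 of them negative. By mean CPM over all 3 libraries, Myc, Trp53 and Stat5a were the most abundant. Trp53 had 89, 37 and 70 counts, or 246, 114 and 264 CPM, and Stat5a, a mediator of cytokine signals, had 229, 89.2 and 400 CPM. Its relative Stat5b had 117, 21 and 38 counts. Negative members included Smad3, a mediator of TGF-beta signals, with 32, 46 and 1 counts, and Foxo1, with 30, 12 and 0. Of the p53 targets other than Cdkn1a, 5 of 11 were at 0 in all libraries. Of the 3 tested, Bax, a death effector, had 66.4, 237 and 64.2 CPM, Aen, a nuclease, 249, 24.6 and 94.5, and Trp53inp1 11.1, 83.1 and 45.3. The WT libraries differed widely on each. KO lay between them for Aen and Trp53inp1, and close to WT replicate 1 for Bax.

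Genes that E2F is known to drive, and mitotic genes, were abundant in all libraries. The 18 E2F target genes summed to 4433, 3305 and 3902 CPM, with a median log2 fold change of -0.23 and 7 positive. Mcm3, Mcm5 and Mcm6, subunits of the replicative helicase, had 421 ± 108, 447 ± 232 and 507 ± 154 CPM in WT (SD, n = 2) and 484, 366 and 397 in KO. The 8 mitotic genes summed to 2447, 2474 and 2814 CPM, with a median of 0.31 and 6 positive. The 2 negative genes were Birc5, with 51, 64 and 5 counts, and Ccnb1, with 13, 4 and 4. Mki67, a marker of cycling cells, had 1414 ± 225 CPM in WT (SD, n = 2) and 1538 in KO, and Top2a, the mitotic topoisomerase, had 497 ± 36.6 and 654. Ccnb2, a mitotic cyclin, had 63.6 and 323 CPM in WT and 212 in KO.

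**Figure D5:**
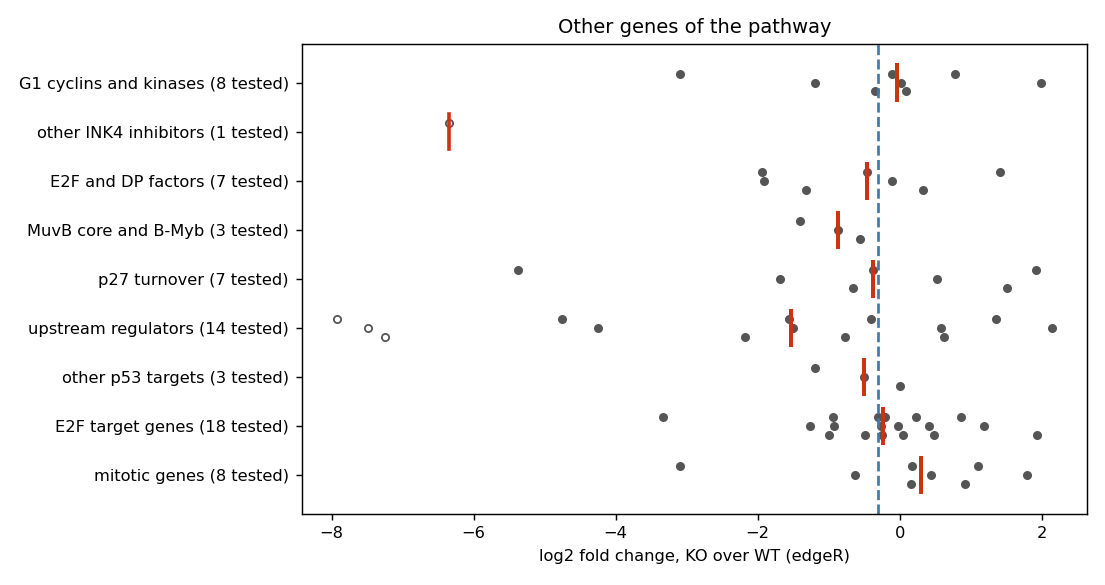
Fold change of KO over WT (log2, edgeR) for the tested non-member genes of 9 pathway lists; each dot is a gene, hollow where a group had 0 counts and the fitted value is no bound, the vertical bars are list medians, and the dashed line is the median of all genes tested, -0.31. The dots of each list spread on one or both sides of that line, and the mitotic genes have the highest median, 0.31.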

How the data were processed

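Total RNA was isolated with a Qiagen micro kit and NEB kits were used for the libraries, per the labels' protocols. STAR and mm10 are named, without versions, in the submitters' processing notes. The deposited values are whole-number counts and FPKM per RefSeq transcript (42574 rows), and neither the counting tool nor strand use is given in the sources used here. The gene count was the highest count over a symbol's rows, since transcripts repeat shared reads, and CPM used the total of gene counts. The deposited FPKM values implied relative depths of 89.6% and 72.6% of WT replicate 1, against 89.9% and 73.2% by counts (678 genes). Gene coordinates are from GENCODE M21 on GRCm38, and promoter windows from RefSeq (GRCm38.p6).

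Groups came from the sample titles. Nothing says that the WT libraries came from separate animals, so p-values reflect the spread of these samples alone, possibly technical. All genes were fitted with edgeR 4.0.16 (filterByExpr, TMM, quasi-likelihood F-test) in R 4.3.3. With 1 residual degree of freedom, the fit assumes that KO varies as the WT pair does. In 3 simulations with 200 changed genes each (6920 to 6988 genes tested), the fit recovered 88.7% of genes raised 16-fold, 14.0% raised 4-fold, 15.3% lowered 16-fold and 2% lowered 4-fold, with 10 false calls in all. The changed genes were drawn only from those with higher expected counts. Recovery at counts as low as those of Cdkn1b and Cdkn2c was not simulated. Alternatives were DESeq2 1.42.0, other scalings, filters, pseudocounts, gene counts and the leaving out of each WT library. Named genes outside the members were the 3 most abundant of each list and any past the threshold. Other genes are named for checks or after their values were seen. They are Nt5e, Kit, Ly6a, Cd34, Flt3, Ptprc, Cd48, Slamf1, Clec9a, Cd3e, Nkg7, Hbb-bt, Epor, Car1, Itga2b, Pf4 and Cxcl12. Ccnd1, Stat5b, Smad3, Foxo1, Birc5, Ccnb1 and overlapping genes are also among them. Members and lists were chosen with earlier results of these data known.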

Additional observations from a re-analysis of the deposited data

How the results depend on the processing

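Over 81 alternative values of the 9 members with any count, 76 moved by less than the WT spread (1 SD of log2 CPM). That spread comes from the same WT pair, so leaving out a WT library moves a ratio by less unless the pair lies far apart. The tally therefore says little about those settings. Cdk4 was positive in 5 settings and negative in 5. Rb1, Rbl2 and Ccnd2 were below WT and Rbl1, Cdkn1b, Cdkn2c and Cdk6 above WT in all 10 settings. For each gene of constant sign, KO lay outside both WT libraries by CPM. Other pseudocounts or leaving out a WT library could therefore not change the sign, and its constancy there is no support. The 5 larger moves were Rb1 (log2 ratio -0.76) and Rbl2 (-3.84) with a pseudocount of 10, Cdkn1a (-5.82 with a pseudocount of 0.1, 0 without WT replicate 1) and Cdkn2c (2.04 with FPKM). Without WT replicate 1 or 2 in turn, the log2 ratio was -4.47 or -5.83 for Rbl2 and 1.53 or 0.47 for Rbl1. Over all genes the 8 calls became 4 with no filter beyond 1 count, 16 (15 higher, 1 lower) with at least 50 counts in some library, 1 with mean counts over rows and 0 with DESeq2. Calls among the pathway genes were 0 under each of these. Leaving out a WT library leaves no residual degrees of freedom, so counts of calls were not refitted. No paired analysis was possible, since there was 1 KO library and its title links it to neither WT replicate. The inhibitors and Rb1, with at most 12 counts in any library, are limited by depth.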
